A study of Mus musculus with 9 samples.

Results

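Oxidative phosphorylation genes were measured in mouse macrophages as 41 subunits of the respiratory chain and ATP synthase. They were chosen by gene symbol and sorted by complex: 18 in complex I, 4 in complex II, 6 in complex III, cytochrome c on its own, 8 in complex IV and 4 in complex V. All 41 were on the array, each with 1 probe set, among 19505 genes, and all 41 were bright enough to be tested, among 10042 genes. Between vehicle and LCN2, whether given from day 7 or from day 0, none of the 41 passed the test, and 0% of all genes did. Between arrays that carried different numbers in their titles, 6 members passed (14.6%), a smaller share than the 33.2% of all genes tested. On the arrays numbered 1, Atp5a1, Ndufs1, Sdhd and Uqcrc1 were lower and Ndufb8 and Cox4i1 were higher, by at most 1.35-fold.

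All 3 groups were macrophages that had been grown from the marrow of wild-type C57BL/6 mice over 7 days with macrophage colony-stimulating factor. The dose of this factor is 10 ng/ml in the growth protocol and 20 ng/ml in the series text. All 3 groups then received 20 ng/ml of the cytokine interleukin 4 (IL-4) for 24 h. IL-4 drives macrophages toward the state often called M2. One group received vehicle, one received LCN2 on day 7, with no dose in the labels, and one received recombinant mouse LCN2 at 150 ng/ml from day 0. LCN2 (lipocalin 2) is a secreted protein that binds iron-carrying siderophores. Each group had 3 arrays, numbered 1 to 3 in their titles, and the labels explain neither this number nor whether replicate arrays stand for different mice or dishes. The p-values therefore measure the spread between these arrays, which may be technical. Small amounts of RNA were amplified and labelled for hybridisation.

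In oxidative phosphorylation, complex I takes electrons from NADH and complex II takes them from succinate, complex III passes them on to cytochrome c, and complex IV hands them to oxygen. Complexes I, III and IV pump protons across the inner mitochondrial membrane, and complex V, the ATP synthase, makes ATP as the protons return. Macrophages activated with IL-4 are known for relying on this pathway, whereas inflammatory macrophages lean on glycolysis and let succinate build up. All members here are encoded in the nucleus, and no probe set carried the symbol of any of the 13 subunits encoded in mitochondrial DNA, while 2631 of the 22203 probe sets carried no symbol.

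Nuclear genes of the pathway are known targets of NRF1 and of ETS-family factors, so their promoters were read from RefSeq (GRCm38.p6), which held an entry for 30 of the 41 members. An entry covers 250 bases before and 50 after the start of the gene. The letters GCATGCG, the core of the NRF1 motif, were searched on both strands and were found in 6 of 30 members (20%), against 7.35% of the 8236 tested genes with an entry and 4.01% of all 27025 entries. The 6 were Ndufa6, Ndufa8, Sdhb, Uqcrc1, Cycs and Cox6a1. The stretches around the match are printed for the 5 in which it lay before the gene start to show where it sits, with the matched letters in capitals. These genes were chosen for holding the core, so the shared letters are set by the search. In Ndufa8, Cycs and Cox6a1 the capitals hold matches on both strands that overlap.
Ndufa6, chr15:82354358-82354384, minus strand: ccgcggtagaGCATGCGcattgcagag
Ndufa8, chr2:36049339-36049357, minus strand: tcgctggagaCGCATGCGc
Sdhb, chr4:140961207-140961233, plus strand: agcccagtggGCATGCGccctacgggc
Cycs, chr6:50566613-50566640, minus strand: catgctagctCGCATGCGcgcgcacaaa
Cox6a1, chr5:115349102-115349129, minus strand: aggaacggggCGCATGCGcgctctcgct
In Uqcrc1 the core began 32 bases after the start. The ETS core CCGGAAG was found in 6 of 30 members (20%) and in 21.26% of the tested genes. CCAAT was found in 11 (36.67%) and in 42.82% of the tested genes, and TATAAA in 0 of 30 and in 8.77% of the tested genes. These are matches of letters within the window, with no test.

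Of the 6 members that differed between the title numbers, 3 promoters are printed, each as the 250 bases before the gene start, so that members which moved in opposite directions can be read side by side. Ndufb8 was higher on the arrays numbered 1, and Sdhd and Uqcrc1 were lower. Ndufb8 passed in 14 of 16 alternative fits, Sdhd in 5 and Uqcrc1 in 6. The promoters of Atp5a1, Ndufs1 and Cox4i1 are not printed here. Capitals mark the ETS core in Sdhd, here as its reverse complement. None of the letters searched for lay in the stretch of Ndufb8 or in that of Uqcrc1.
Ndufb8, chr19:44555443-44555692, minus strand: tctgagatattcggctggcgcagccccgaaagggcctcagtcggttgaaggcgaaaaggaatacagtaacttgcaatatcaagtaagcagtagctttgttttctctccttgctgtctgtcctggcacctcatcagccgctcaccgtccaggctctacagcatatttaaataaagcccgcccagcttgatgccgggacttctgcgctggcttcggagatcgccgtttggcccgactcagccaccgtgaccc
Sdhd, chr9:50603850-50604099, minus strand: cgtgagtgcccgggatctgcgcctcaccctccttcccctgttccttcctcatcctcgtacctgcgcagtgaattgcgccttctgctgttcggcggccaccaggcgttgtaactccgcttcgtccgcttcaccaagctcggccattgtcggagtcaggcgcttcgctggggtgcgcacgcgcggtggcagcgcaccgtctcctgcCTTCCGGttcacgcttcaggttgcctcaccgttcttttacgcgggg
Uqcrc1, chr9:108936398-108936647, plus strand: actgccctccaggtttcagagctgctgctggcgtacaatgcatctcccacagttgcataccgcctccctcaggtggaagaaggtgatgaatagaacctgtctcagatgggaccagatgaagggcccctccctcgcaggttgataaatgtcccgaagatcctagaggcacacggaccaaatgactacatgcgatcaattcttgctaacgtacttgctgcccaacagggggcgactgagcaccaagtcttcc

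Values are log2 levels, so a difference of 1 is a doubling. Beyond a count of brightness, levels of different genes were not set against each other, because each probe set has its own scale. That count put 36 of the 41 members above the median level of all genes tested. The 41 members varied little, but their ranges were not matched for level. The range from the lowest to the highest of the 9 arrays had a median of 0.375 over the members and 0.595 over all genes tested, and 37 members lay below that second value. Cox6c, a small subunit of complex IV, had the smallest range, 0.13. Ndufs1, an iron-sulfur protein of complex I, had the largest, 0.804. The heat map of deviations shows most members close to their own mean on every array.

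**Figure D1:**
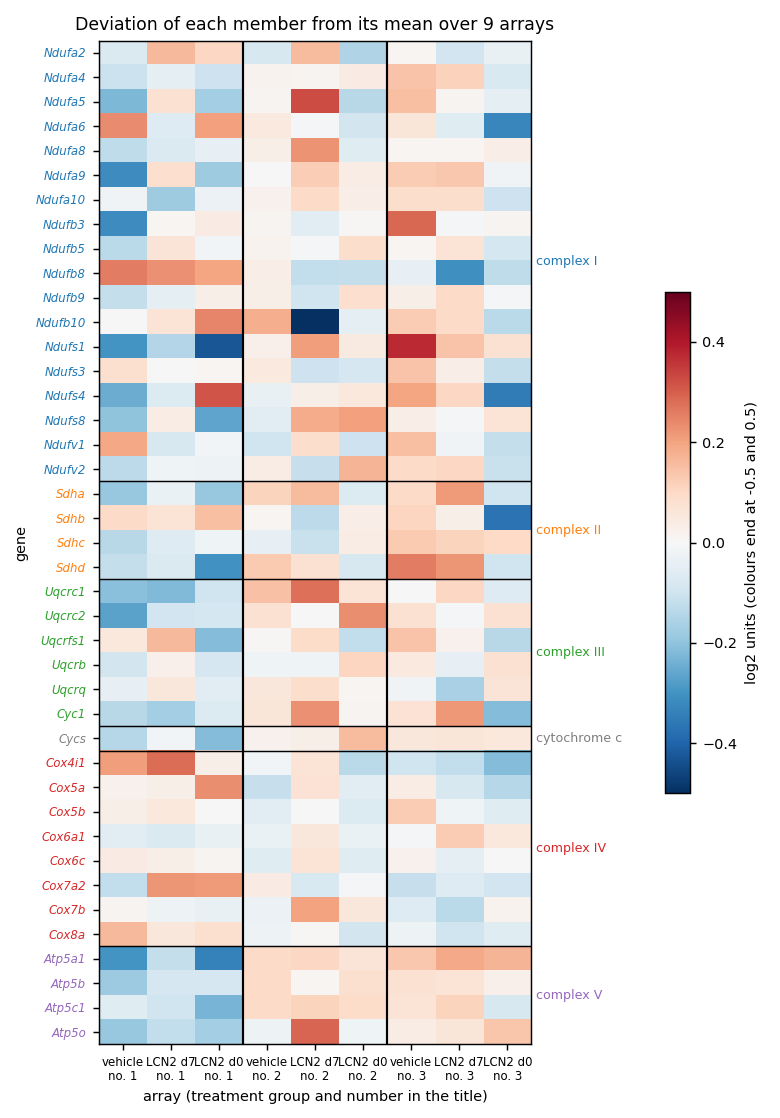
Each row is 1 member and each column 1 array, ordered by the number in the title and then by treatment group; the colour is the log2 level minus that member's mean over the 9 arrays. The complex V rows are below their mean on the 3 arrays numbered 1 and mostly above it on the other 6.

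The arrays as a whole had medians between 5.6 and 5.69 on the log2 scale. The first principal component held 62.52% of the variance of the genes tested, and it set the arrays numbered 1 apart. All 8 macrophage markers on the array passed the filter on dim probe sets, whereas 0 of 6 T and NK cell markers and 0 of 5 B cell markers did. In bulk RNA, fewer cells of a type and less RNA per cell cannot be told apart. Beside every difference between title numbers below stand these values, with calls at an adjusted p of 0.05 in limma, where 33.2% of all genes were called. The mean level of 24 cell cycle genes was 7.929 to 8.563 on the arrays numbered 1 and 8.979 to 9.286 on the others, with 23 below 0 and 22 called lower. The mean level of 11 neutrophil markers was 5.848 to 6.461 against 6.969 to 7.379, and of the 9 tested 8 lay below 0 and 7 were called lower. That of 6 monocyte markers was 6.385 to 6.533 against 7.246 to 7.553, and all 5 tested lay below 0, with 4 called lower. The 8 osteoclast markers went the other way, at 8.708 to 9.225 against 7.665 to 8.313, with 5 of the 7 tested called higher and 1 lower. The 7 dendritic cell markers read 6.694 to 7.028 against 6.505 to 6.778, with 3 of the 4 tested called higher, and the 8 macrophage markers 10.605 to 10.701 against 10.362 to 10.526, with 3 called higher and 1 lower. The part of these cell types in the results was not tested.

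The comparison of title numbers asks how the members differed between arrays numbered 1 and arrays numbered 2 and 3 within the same treatment group. This split was chosen because earlier results of these data showed the arrays numbered 1 apart. Its p-values and shares of calls are therefore not those of a split set in advance. In limma, with treatment group as a second factor and Benjamini-Hochberg adjustment over all genes, 33.2% of the 10042 genes passed an adjusted p of 0.05. Of the 41 members, 6 passed (14.6%), with 2 above 0 and 4 below, where 11% of all genes were higher and 22.1% lower. The median difference was -0.084 over the members and -0.064 over all genes, with 14 members above 0 and 27 below. Of all genes, 4110 lay above 0 and 5932 below. The members' share of calls was thus under that of all genes tested. The counts rested on single arrays: without the vehicle array numbered 1, 1 member (2.44%) and 17.7% of genes passed. Without the day 0 array numbered 1, 2 members (4.88%) and 19.1% of genes did, and without the day 7 array numbered 1, 2 members and 26% of genes. Without any one of 4 other arrays (vehicle 2 or 3, day 7 number 3, day 0 number 2), 3 members passed (7.32%) and 23.8% to 28.9% of genes. Under each of these the members' share stayed under that of all genes.

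The direction of these medians depends on the scale. Centring and quantile normalization used only the 10042 genes tested, not the medians of whole arrays given above. After each array was centred on its median over these genes, the median difference moved from -0.064 to 0.035 over all genes. That of the members moved to 0.015, and 22 members lay above 0 and 19 below. Then 6 members passed (14.6%, against 32.5% of genes), with Ndufa6, Ndufb8, Cox4i1 and Cox8a higher and Ndufs1 and Atp5a1 lower. Among all genes passing, 33.3% were higher on the arrays numbered 1 as deposited, 53.4% after centring and 47.8% after quantile normalization. Complex I changed sign with the scale, at -0.078 as deposited, 0.021 after centring and 0.013 after quantile normalization. The median of the 4 complex V members stayed below 0, at -0.218, -0.119 and -0.152. That of the 8 complex IV members stayed above 0, at 0.091, 0.19 and 0.133. Over the 11 other ATP synthase subunits tested, the median was -0.02, 0.079 and 0.072. Over the 24 other respiratory chain subunits tested, it was 0.094, 0.193 and 0.181.

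Complex I, which oxidises NADH, had 2 members past the threshold, in opposite directions. Ndufs1 carries iron-sulfur clusters in the arm that reaches into the matrix. It read 8.63, 8.78 and 8.49 on the arrays numbered 1 of the vehicle, day 7 and day 0 groups. On the arrays numbered 2 and 3 it read 8.95 and 9.30 with vehicle, 9.13 and 9.07 with LCN2 from day 7, and 8.97 and 9.001 with LCN2 from day 0. Every array numbered 1 was below every other array, and the difference was -0.44 ± 0.093 (SE, 3 against 6 arrays, limma, adjusted p = 0.00903). The call was lost without the vehicle array numbered 1 (adjusted p = 0.0631) and without the day 0 array numbered 1 (adjusted p = 0.0557), with differences of -0.41 in both.

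Ndufb8, an accessory subunit of the membrane arm of complex I, was higher on the arrays numbered 1. There it read 7.83, 7.81 and 7.77 in the same order of groups. The other arrays read 7.61 and 7.53 with vehicle, 7.45 and 7.27 with LCN2 from day 7, and 7.46 and 7.45 with LCN2 from day 0. The 2 sets of arrays did not overlap, and the difference was 0.34 ± 0.079 (limma, adjusted p = 0.0122). It lost its call without the day 7 array numbered 1 (0.29, adjusted p = 0.062) or the day 0 array numbered 1 (0.35, adjusted p = 0.0519). Ndufs4, an accessory subunit whose loss causes Leigh syndrome in humans, had the smallest difference of the complex, -0.001 ± 0.16 (limma, adjusted p = 0.997). Its values on the arrays numbered 1 were 8.17, 8.35 and 8.73, a wider spread than that of Ndufb8. The other 15 members of complex I did not pass.

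Complex II, which also works in the citric acid cycle as succinate dehydrogenase, had 1 member past the threshold. Sdhd, one of the pair of subunits that anchor the enzyme in the membrane, read 9.78, 9.83 and 9.60 on the arrays numbered 1. On the arrays numbered 2 and 3 it read 10.03 and 10.16 with vehicle, 9.98 and 10.12 with LCN2 from day 7, and 9.82 and 9.80 with LCN2 from day 0. Within each group the array numbered 1 was the lowest, but the arrays overlapped across groups, because the day 7 array numbered 1 lay above the day 0 arrays numbered 2 and 3. The difference was -0.25 ± 0.076 (limma, adjusted p = 0.0366). It was called in 5 of 16 alternatives, and in 7 of 9 fits that left out 1 array it was not, with an adjusted p of up to 0.18. After centring the difference was -0.15 (adjusted p = 0.143). Sdhc, the other anchor subunit, had the smallest difference of the complex, -0.11 ± 0.076 (adjusted p = 0.289).

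In complex III, which moves electrons from ubiquinol to cytochrome c, 5 of 6 members were below 0 and 1 passed. Uqcrc1, the large core protein of the complex, read 9.41, 9.40 and 9.52 on the arrays numbered 1. Elsewhere it read 9.76 and 9.61 with vehicle, 9.89 and 9.72 with LCN2 from day 7, and 9.69 and 9.55 with LCN2 from day 0. All arrays numbered 1 lay below the others, by a narrow margin to the last of these, and the difference was -0.26 ± 0.084 (limma, adjusted p = 0.0423). The call held in 6 of 16 alternatives. It held in 2 of 9 fits without 1 array, and the adjusted p reached 0.184 without the day 7 array numbered 1. After centring the difference was -0.16 (adjusted p = 0.17). Uqcrfs1, the Rieske iron-sulfur protein, had a difference of 0.0008 ± 0.081 (adjusted p = 0.996). Uqcrc2, the other core protein, did not overlap between the number sets and missed the threshold at -0.23 ± 0.082 (adjusted p = 0.0672).

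Cytochrome c, the mobile carrier between complexes III and IV, is represented by Cycs. It read 10.75, 10.88 and 10.67 on the arrays numbered 1. The other arrays read 10.91 and 10.95 with vehicle, 10.92 and 10.95 with LCN2 from day 7, and 11.05 and 10.94 with LCN2 from day 0. The arrays did not overlap, yet the difference of -0.19 ± 0.083 did not pass (limma, adjusted p = 0.115).

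Complex IV, cytochrome c oxidase, was the complex with a median above 0: 6 of its 8 members were above 0, all 8 were after centring and 7 after quantile normalization. Ndufa4, which is known as a subunit of this complex but was counted with complex I by its name, stood at -0.13, at -0.03 after centring and at -0.09 after quantile normalization. With Ndufa4 the median of complex IV was 0.041 in place of 0.091 and 6 of 9 were above 0, or 8 of 9 after centring. Without it, within the vehicle, day 7 and day 0 groups the median of the 8 was 0.059, 0.049 and 0.109. Cox4i1, the general isoform of subunit IV, read 10.13, 10.20 and 9.94 on the arrays numbered 1. The arrays numbered 2 and 3 read 9.90 and 9.82 with vehicle, 9.98 and 9.79 with LCN2 from day 7, and 9.78 and 9.70 with LCN2 from day 0. In each group the array numbered 1 was the highest, while the day 0 array numbered 1 lay under the day 7 array numbered 2. The difference was 0.26 ± 0.074 (limma, adjusted p = 0.029). It kept its call after centring and quantile normalization and in 2 of 9 fits without 1 array, with an adjusted p of up to 0.123 when the vehicle array numbered 1 was left out. Cox7b had the smallest difference of the complex, -0.024 ± 0.086 (adjusted p = 0.855).

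Complex V had the lowest median, and 4 of its 4 members were below 0. The 11 other ATP synthase subunits tested had a median of -0.02, with 4 above 0 and 7 below. The median of the 4 members was -0.231, -0.239 and -0.232 within the vehicle, day 7 and day 0 groups. All 4 had an unadjusted p under 0.05, as had 45% of all genes, and 1 passed after adjustment. Atp5a1, the alpha subunit of the catalytic head, read 11.70, 11.87 and 11.66 on the arrays numbered 1. The remaining arrays read 12.09 and 12.13 with vehicle, 12.10 and 12.18 with LCN2 from day 7, and 12.06 and 12.16 with LCN2 from day 0. Those 6 arrays lay between 12.06 and 12.18, all above the arrays numbered 1. The difference was -0.38 ± 0.077 (limma, adjusted p = 0.00717), and the call held in 15 of 16 alternatives. The exception was the fit without the vehicle array numbered 1 (-0.36, adjusted p = 0.0521).

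The remaining ATP synthase members followed the sign of Atp5a1 without passing. Atp5b, the beta subunit that holds the catalytic sites, had the smallest difference of the complex, -0.18 ± 0.076 (limma, adjusted p = 0.106). Its arrays numbered 1 read 11.90, 12.002 and 12.002, and its others 12.10 to 12.18. Atp5c1, the gamma subunit of the rotating stalk, differed by -0.20 ± 0.076 (adjusted p = 0.0782), and Atp5o, in the stator that holds the head still, by -0.24 ± 0.088 (adjusted p = 0.0684). With limma's trend and robust options, under which 12 members (29.3%) and 36.8% of all genes passed, these 3 passed too, with adjusted p of 0.00807 for Atp5b, 0.017 for Atp5c1 and 0.017 for Atp5o.

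**Figure D2:**
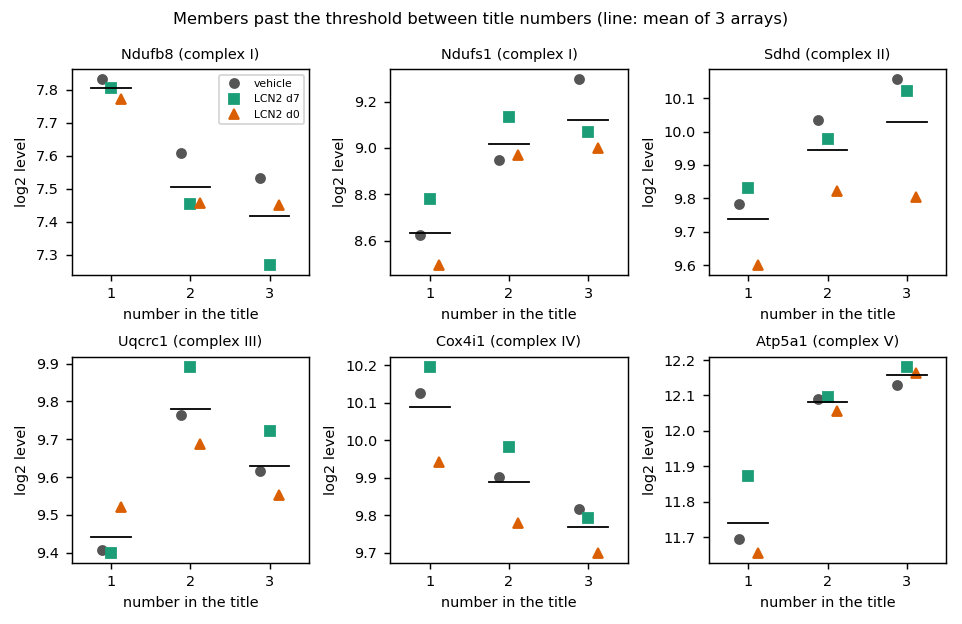
Log2 level of the 6 members past the threshold between title numbers, by the number in the title; symbols stand for the treatment group and the line is the mean of the 3 arrays of a number. Ndufb8 and Cox4i1 are highest at number 1, and Ndufs1, Sdhd, Uqcrc1 and Atp5a1 are lowest there.

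**Figure D3:**
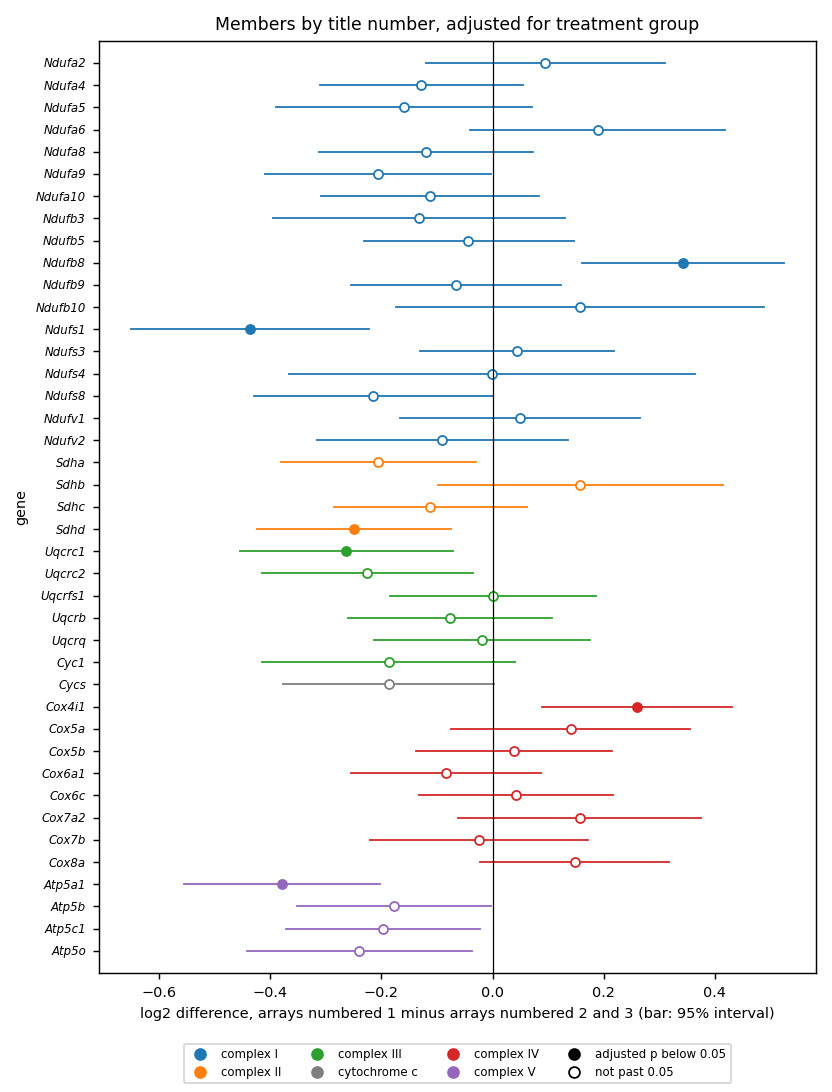
Log2 difference of the arrays numbered 1 from the arrays numbered 2 and 3 for each member, with its 95% interval; colours stand for the complexes and filled points passed an adjusted p of 0.05 (6 of 41). Complex V lies below 0 in all 4 members and complex IV above 0 in 6 of 8.

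Across the complexes, 10 members did not overlap between the number sets (24.4%), 2 higher and 8 lower, and 35.4% of all genes did not overlap. The arrays numbered 1 moved the same way in all 3 groups in 25 members, 6 up and 19 down (61.0%), and in 63.7% of all genes. Between the arrays numbered 2 and the arrays numbered 3, limma called 0 members and 0% of genes. The unadjusted p was under 0.05 in 0 members and in 310 genes (3.09%), and the median difference of the members was 0.013. Only Sdhc and Atp5a1 did not overlap there, against 8.54% of genes.

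Genes around the members were described from lists of the same pathway. Between the title numbers, 4110 of all 10042 genes lay above 0 and 5932 below, with 11% called higher and 22.1% lower. After centring 5482 lay above 0 and 4560 below, with 1746 called higher and 1522 lower. These values stand beside the counts of every list below. Of 24 other subunits of the respiratory chain, 16 lay above 0 and 8 below in the arrays numbered 1, with a median of 0.094, and 3 were called higher and 1 lower. Ndufa1, a small accessory subunit of complex I, was the furthest of these, at 8.014 to 8.166 on the arrays numbered 1 and 6.921 to 7.475 on the others, a difference of 0.91 ± 0.13 (limma, adjusted p = 0.00185). Ndufb6 went the other way, at -0.49 ± 0.15 (adjusted p = 0.0322). Of 11 other ATP synthase subunits, 1 passed: Atp5e, the epsilon subunit, was higher by 0.42 ± 0.11 (adjusted p = 0.0225), opposite to Atp5a1. Subunits of the same complex thus moved in both directions, in complex I and in complex V, and Ndufs1, Ndufb8, Atp5a1, Ndufa1 and Atp5e kept their direction and their call after centring and quantile normalization. The call of Ndufb6 was lost after quantile normalization (-0.40, adjusted p = 0.0541). The median of the 24 subunits was 0.193 after centring, with 8 called higher and 1 lower, and that of the 11 turned from -0.02 to 0.079, with 4 called higher.

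The assembly factors build the complexes without being part of them. Of all genes in the same comparison, 5932 of 10042 lay below 0, with 22.1% called lower and 11% higher. Of the assembly factors, 31 of 40 lay below 0, 7 were called lower and 3 higher, and the median was -0.19. After centring 25 lay below 0, with 4 called lower and 3 higher, and after quantile normalization 28 did, again with 4 called lower and 3 higher. Cox18, which helps insert a core subunit of complex IV into the membrane, differed by -0.65 ± 0.091 (limma, adjusted p = 0.00145), and Ndufaf1, an assembly factor of complex I, by -0.64 ± 0.12 (adjusted p = 0.00464). Of 76 mitochondrial ribosomal proteins, 50 lay below 0, 17 were called lower and 1 higher, and the median was -0.135. After centring, the medians of these lists were -0.091 and -0.036, 40 ribosomal proteins lay below 0, and 13 were called lower and 5 higher. Mrpl47 differed by -0.83 ± 0.15 (adjusted p = 0.00464) and Mrps27 by -0.68 ± 0.085 (adjusted p = 0.000946).

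The citric acid cycle and pyruvate dehydrogenase, which feed NADH and succinate to complexes I and II, had 15 of 16 genes below 0 on the arrays numbered 1, with 9 called lower, 0 called higher and a median of -0.291. After centring 13 lay below 0, 7 were called lower and the median was -0.192. Pdha1, the alpha subunit of pyruvate dehydrogenase, read 8.012 to 8.182 against 8.794 to 9.231 and differed by -0.90 ± 0.1 (limma, adjusted p = 0.000624). Suclg2, a subunit of succinyl-CoA ligase, differed by -0.76 ± 0.17 (adjusted p = 0.0109). Among 14 carriers and other entry points of electrons, 11 lay below 0, 6 were called lower and 2 higher (3 and 2 after centring). Vdac3, a pore of the outer membrane, differed by -0.54 ± 0.14 (adjusted p = 0.0179), while Mpc1, a part of the pyruvate carrier, differed by 0.50 ± 0.15 (adjusted p = 0.0323).

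Of 13 genes of mitochondrial transcription and biogenesis, 10 lay below 0 and 3 above, 3 were called lower and 0 higher, and the median was -0.23. After centring 3 were called lower and 1 higher, with a median of -0.131. Tfb1m, which modifies mitochondrial ribosomal RNA, differed by -0.74 ± 0.12 (limma, adjusted p = 0.00266). Gabpa, an ETS-family factor known to act on genes of oxidative phosphorylation, differed by -0.61 ± 0.12 (adjusted p = 0.00597). The plot of lists by title number sets these beside the members, whose differences were small next to those of the cell cycle genes (median -0.992) and the neutrophil markers (median -1.193).

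**Figure D4:**
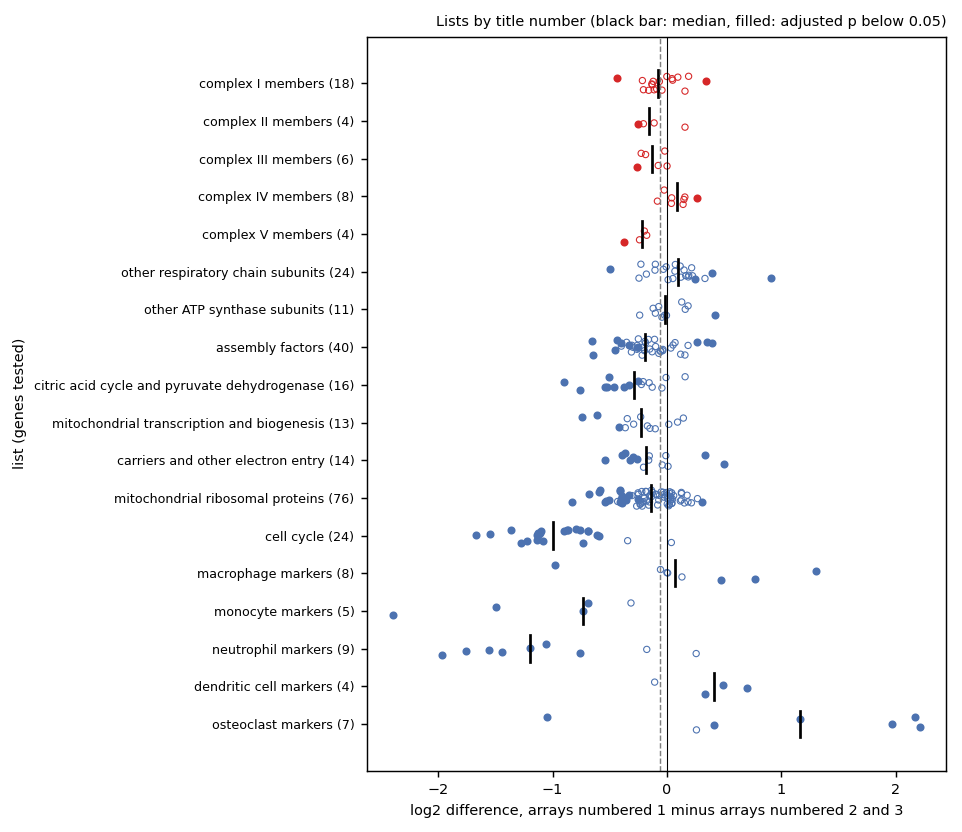
Each point is a tested gene, placed by its log2 difference between the arrays numbered 1 and the arrays numbered 2 and 3; black bars are the medians of the lists, filled points passed an adjusted p of 0.05, the dashed line is the median of all genes (-0.064), members are red and other lists blue. The members lie between -0.44 and 0.34, closer to 0 than the cell cycle genes, with a median of -0.992.

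LCN2 given on day 7, together with IL-4, was compared with vehicle to ask what it did to cells that were already macrophages. None of the 41 members passed, and 0% of the 10042 genes did (limma, Benjamini-Hochberg). An unadjusted p under 0.05 was found in 0 members and in 70 genes (0.697%). The median difference of the members was 0.018, with 27 above 0 and 14 below. That of all genes was 0.003, with 5114 above 0 and 4928 below. The 95% interval lay within a change of 1.5-fold in either direction for 40 of the 41 members, so changes larger than that lay outside the intervals of those 40.

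By complex, the member furthest from 0 after LCN2 from day 7 was Ndufb10 in complex I, an accessory subunit of the membrane arm. It read 6.61, 6.79 and 6.74 with vehicle and 6.68, 6.08 and 6.71 with LCN2 from day 7, so the difference of -0.23 ± 0.18 rested on the array numbered 2 (limma, adjusted p = 1). In complex II it was Sdha, the flavoprotein that oxidises succinate, at 0.11 ± 0.12. In complex III it was Cyc1, cytochrome c1, at 0.09 ± 0.14, and Cycs stood at 0.05 ± 0.12. In complex IV it was Cox7a2 at 0.09 ± 0.13, and in complex V Atp5o at 0.13 ± 0.14. The groups did not overlap in 2 members (4.88%), against 3.17% of genes: Ndufa6 and Ndufs3, both of complex I and both lower with LCN2. Ndufs3, a core subunit of the matrix arm, read 10.10, 10.06 and 10.15 with vehicle and 10.01, 9.91 and 10.05 with LCN2 from day 7.

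LCN2 from day 0 was present during the whole growth of the macrophages, and its comparison with vehicle asks what that long exposure did. Again 0 members and 0% of genes passed (limma, Benjamini-Hochberg). An unadjusted p under 0.05 was found in 1 member, Uqcrfs1, and in 142 genes (1.41%). The median of the members was -0.009, with 20 above 0 and 21 below. That of all genes was -0.015, with 4539 above 0 and 5503 below. The interval lay within 1.5-fold for 40 members here too.

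Uqcrfs1, the Rieske protein of complex III, read 9.12, 9.07 and 9.21 with vehicle, 9.23, 9.15 and 9.08 with LCN2 from day 7, and 8.85, 8.94 and 8.93 with LCN2 from day 0. The day 0 arrays lay below all 6 others. The difference from vehicle was -0.23 ± 0.099, with an unadjusted p of 0.048 and an adjusted p of 0.999 in limma. Sdhd of complex II was the member furthest from 0, at -0.25 ± 0.14 (adjusted p = 0.999), lower than vehicle in 3 of 3 pairs of equal number. Its array values are those given with the title numbers above, and they overlapped between the groups.

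In the other complexes the members furthest from 0 after LCN2 from day 0 were Ndufa6 (-0.19 ± 0.14), an accessory subunit of complex I, Cox4i1 of complex IV (-0.14 ± 0.14) and Atp5c1 of complex V (-0.11 ± 0.12), and Cycs stood at 0.02 ± 0.12. The groups did not overlap in 2 members, Ndufs3 and Uqcrfs1 (4.88%), both lower, against 5.49% of genes. All 3 pairs of equal number went the same way in 13 members (31.7%), 2 up and 11 down, and in 27.2% of genes. Within the numbers 1, 2 and 3, the median over the members was 0.009, -0.006 and -0.118, and that of all genes was 0.01, 0.012 and -0.064. In the arrays numbered 3, 32 of 41 members were lower with LCN2 from day 0, and so were 6131 of all 10042 genes.

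**Figure D5:**
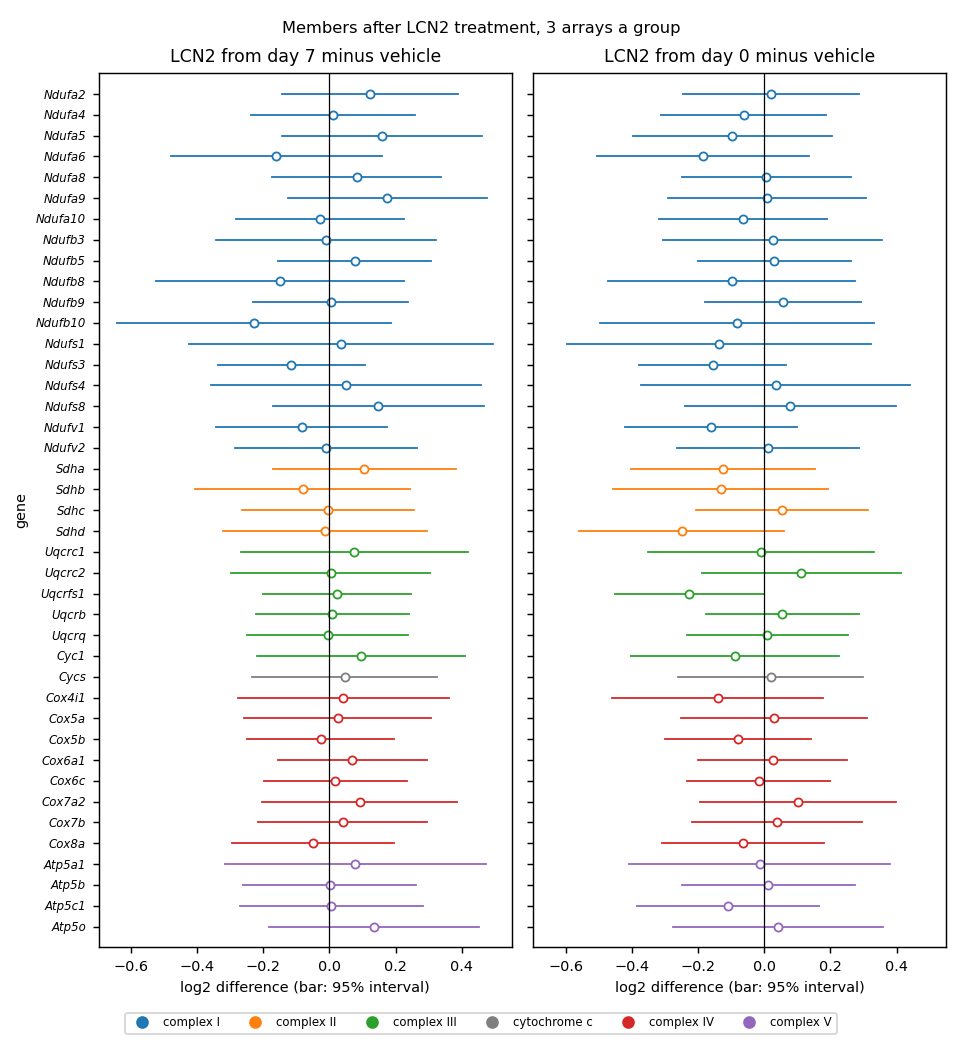
Log2 difference from vehicle of each member after LCN2 from day 7 (left) and from day 0 (right), with its 95% interval, colours standing for the complexes. None of the 41 passed the adjusted threshold in either comparison, and the day 0 interval of Uqcrfs1 ends just under 0.

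The LCN2 groups were also set against each other, day 0 minus day 7, to ask whether the time of exposure mattered. Here too 0 members and 0% of genes passed (limma, Benjamini-Hochberg), with an unadjusted p under 0.05 in 1 member, Uqcrfs1, and in 177 genes (1.76%). The members' median was -0.043, with 12 above 0 and 29 below. That of all genes was -0.017, with 4465 above 0 and 5577 below. After centring, 19 members were above 0 and 22 below, with a median of -0.004. Of all genes, 5758 were then above 0 and 4284 below.

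The groups did not overlap in 5 members (12.2%), all lower with LCN2 from day 0, where 5% of genes did not overlap, both directions counted. They were Ndufa5 and Ndufa9 of complex I, Sdha and Sdhd of complex II, and Uqcrfs1 of complex III. The lowest day 7 and highest day 0 arrays read 9.8308 and 9.8232 in Sdhd and 7.8528 and 7.8167 in Sdha. They read 8.8033 and 8.7591 in Ndufa9, 8.3706 and 8.3111 in Ndufa5, and 9.0833 and 8.9385 in Uqcrfs1. Overlap was read from deposited values only, whose array medians ran from 5.6 to 5.69. Ndufa5, an accessory subunit of the matrix arm, read 8.43, 8.68 and 8.37 with LCN2 from day 7 and 8.19, 8.22 and 8.31 with LCN2 from day 0, and differed by -0.26 ± 0.13 (limma, adjusted p = 1). Sdha read 7.85, 8.04 and 8.10 against 7.70, 7.82 and 7.79, a difference of -0.23 ± 0.12. Sdhd differed by -0.24 ± 0.14 and Uqcrfs1 by -0.25 ± 0.099, both with an adjusted p of 1. Cox4i1 at -0.18 ± 0.14, Atp5c1 at -0.11 ± 0.12 and Cycs at -0.03 ± 0.12 were the furthest of their complexes. The vehicle values of Sdha, 7.70, 7.996 and 7.98, overlapped with both LCN2 groups.

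The LCN2 errors and intervals above come from fits without the title number. With it as a block, the median SE over the members was 0.0966 in place of 0.1233, and still no member passed in any LCN2 comparison. The interval then lay within 1.5-fold for 40 members after LCN2 from day 7, and for 41 in each of the other comparisons. The lowest adjusted p over the members was then 0.999 for LCN2 from day 7, 0.96 for LCN2 from day 0 and 0.898 between the LCN2 groups. The unadjusted p was under 0.05 for Sdhd and Uqcrfs1 against vehicle after LCN2 from day 0 (4.95% of genes), for 0 members after LCN2 from day 7 (2.58% of genes) and for Sdha, Sdhd and Uqcrfs1 between the LCN2 groups (5.37% of genes). No gene of any list named above passed in an LCN2 comparison.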

How the data were processed

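Gene expression was measured on 9 arrays, 3 in each treatment group. The authors deposited log2 expression levels of 22203 probe sets, with 0 missing values, made by RMA in the package oligo per the submitters' processing notes, which give no versions. RMA corrects background, makes the arrays' distributions alike and summarises probes, yet the deposited medians still ran from 5.6 to 5.69, so differences carry small shifts of a whole array. The deposited log2 values were used unchanged. A gene symbol was attached to 19572 probe sets, and 2631 had none. The brightest probe set was kept per gene, and probe sets with a mean under the median of all means (5.66) were left out. Precision is limited by having 9 arrays.

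limma 3.58.1 in R 4.3.3 was fitted to all 9 arrays, with Benjamini-Hochberg adjustment over 10042 genes and a threshold of 0.05. Groups were compared with 1 mean per group, and title numbers with group and number as factors. Errors are standard errors of the fit. The fits were tested on simulated data with independent noise. For LCN2 these data held no title-number difference, unlike the real arrays, so that test does not cover it. The title-number comparison, the members and the lists were chosen with earlier results of these data known, among them that the arrays numbered 1 stood apart. Named members are, per complex, the called member furthest from 0 in each direction and the member nearest 0 for the title numbers, and the member furthest from 0 in each LCN2 comparison. In each list the 2 called genes furthest from 0 are named, except for the marker and cell cycle lists and the muscle-type and other tissue-restricted isoforms, which are described by counts or in the closing section. Uqcrc2, Atp5c1, Ndufs3 and the other members named for not overlapping or for their complex were chosen after their values were seen.

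As a check of pairing, the deviations of equally numbered arrays from their group means correlated at 0.156 to 0.82 in 9 of 9 pairs. The numbers were therefore used to pair the arrays in the replicate block, but not in the main LCN2 fits. The errors and intervals of those fits hold the spread between title numbers. Arrays numbered 2 and 3 of different groups correlated at 0.201 to 0.687, so pairing within those is not shown. Alternatives covered filters, centring, quantile normalization, limma's trend and robust options, probe-set means, the replicate block and leaving out each array. Ndufa4, known as a subunit of complex IV, was counted with complex I by its name.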

Additional observations from a re-analysis of the deposited data

How the results depend on the processing

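In the 3 LCN2 comparisons, 0 members and 0 genes passed under every alternative run. The replicate block, which the title numbers allow, changed no call there: it gave 0 calls in each of the 3. It raised the genes with an unadjusted p under 0.05 from 70 to 259, from 142 to 497 and from 177 to 539. The median over the members for LCN2 from day 0 was -0.009 and ran from -0.0756 (without the vehicle array numbered 1) to 0.0205 when 1 array was left out. Between the title numbers, 6 members passed (33.2% of genes), against 3 without the filter on dim probe sets (13.9% of genes) and 12 with limma's trend and robust options (36.8% of genes). Leaving out 1 array gave 1 to 6 members and 1777 to 3612 genes. The lowest count of both came without the vehicle array numbered 1. Without the day 0 array numbered 1 there were 2 members and 1923 genes, and without the day 7 array numbered 1 there were 2 members. The count was 3 without the vehicle array numbered 2 or 3, the day 7 array numbered 3 or the day 0 array numbered 2. The members' median was -0.0835, 0.0155 after centring and -0.0163 after quantile normalization. With fewer arrays the fits also have fewer degrees of freedom, and the cause of the other shifts was not tested.

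Sign changes were found only in members that did not pass. Between the title numbers, Ndufs4 turned to 0.0979 after centring and 0.0986 after quantile normalization. Cox7b turned to 0.075 and 0.0273 in those settings. Without 1 array, Ndufs4 ran from -0.2331 to 0.1638, Cox7b from -0.0672 to 0.0181 and Uqcrfs1 from -0.053 to 0.0434. Ndufb3, Ndufb5, Ndufb9, Ndufv1, Ndufv2, Uqcrb, Uqcrq and Cox6a1 also crossed 0 between the title numbers in some of the 16 alternatives. Ndufb3 ran from -0.217 to 0.035 and Uqcrq from -0.075 to 0.081. Left-out arrays moved Cycs from -0.0138 to 0.0853 and Cox7a2 from -0.0049 to 0.1455 after LCN2 from day 7. They moved Cycs from -0.061 to 0.1264 after LCN2 from day 0 and from -0.1074 to 0.08 between the LCN2 groups, where centring gave 0.0113. With Ndufa4 counted in complex IV, the medians between title numbers were -0.066 for complex I and 0.041 for complex IV.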

Other observations

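Subunit isoforms known mainly from muscle, testis or other tissues were looked at beside the general ones. Of 9 on the array, 3 passed the filter on dim probe sets, and Cyct, the testis form of cytochrome c, stayed at 3.157 to 3.371 on the 9 arrays. Cox6a2, the form of subunit VIa known from heart and skeletal muscle, was above the filter on all arrays. It read 7.312, 7.156 and 7.022 on the arrays numbered 1 of the vehicle, day 7 and day 0 groups. It read 7.953 and 8.021, 8.036 and 8.055, and 8.263 and 8.214 on the arrays numbered 2 and 3 in the same order. The difference of -0.93 ± 0.11 (limma, adjusted p = 0.000674) was further from 0 than that of any of the 41 members, and Cox6a1, the general form, differed by -0.08 ± 0.074 (adjusted p = 0.418). What RNA its probe set measured in these cells was not tested.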
